A study of Mus musculus and Miniopterus natalensis with 16 samples.

Results

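Meis2 is a homeobox transcription factor of the TALE class, and the feature described here carries a probe for the 5′ end of its transcript. It is 1 of 12656 array features with values of their own in a comparison of bat limbs with the mouse limb. Autopods, which are the plates of hand and foot with their digits and interdigital webbing, were taken from embryos of wild-caught Natal long-fingered bats (Miniopterus natalensis) at Carollia stages CS16 and CS17. The forelimb (FL) and the hindlimb (HL) autopods of 4 embryos a stage, left and right pooled within an embryo, were labelled with Cy3 and hybridised to mouse oligonucleotide arrays. Each of the 16 arrays also held Cy5-labelled RNA from a pool of FL autopods of 24 ICR mouse embryos at E13.5. The tissue was cut at the presumptive wrist or ankle, so the upper limb, the lower limb and the front and side membranes of the wing were left out. The same repeat number in FL and HL marks 1 embryo, and the 4 arrays of a repeat number were labelled as a batch, for which the mouse pool was amplified anew. The bat groups differ in limb and stage.

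In mouse and chick embryos, Meis1 and Meis2 mark the proximal limb bud, the part that forms the upper arm and thigh, and fibroblast growth factor signals from the limb tip keep them out of the distal bud. Meis proteins bind DNA together with Pbx and Hox proteins. When Meis genes are forced on in the distal limb of chick or mouse, the distal limb forms abnormally. The bat FL keeps its interdigital webbing as the wing membrane, while the digits of the HL become free.

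The deposited table gives each feature a number and no gene name. Feature 24123 was chosen by its readout, selected on 3 mean folds that the study lists for its probe M400017713. These folds are CS16 FL over HL, CS17 FL over HL, and CS17 FL over the mouse FL. Feature 24123 had folds of 1.93, 4.53 and 9.91, each within 0.05 of the listed one, with a largest deviation of 0.0333. It was the only feature within that tolerance or within 0.1. The next nearest feature, 31046, deviated by 2.93 and the one after it, feature 24136, by 3.10. The levels of CS17, the limb differences and everything built on them are therefore given as a description, without a test.

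The study places this probe in the 5′ untranslated region of the Meis2 mRNA. The sequence of the probe is not among the sources used here. The 2 primers that the study designed to amplify the region the probe binds are printed because they show which part of the transcript the values refer to, 5′ to 3′ and without any part marked by capitals.
5′ Meis2 forward primer: ctatggccaccacgacttc
5′ Meis2 reverse primer: tgtcagtaggtgttggcagg
The forward primer has 19 bases and a GC content of 57.9%, and the reverse primer has 20 bases and a GC content of 55%. On the strand of the forward primer the reverse primer reads cctgccaacacctactgaca.

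The values are log2 ratios made by the authors. They were turned in sign, so that a positive value stands for more signal from the bat. The direction is a likely one, taken from the folds, since 0 features matched the 3 folds of the probe with the sign as deposited and the nearest then deviated by 4.46. Of the 35 probes the study lists with folds, 33 had a matching feature with the sign turned and 4 with the sign as deposited. With mouse RNA in Cy5, the red dye, and bat RNA in Cy3, the green dye, the deposited sign is that of red over green. By the wording of the sample labels, which speak of bat relative to mouse, higher and lower would change places in all values below. Whether the ratios were centred is unknown, and the medians of the 16 arrays after turning lay between -0.17 and -0.04. All 16 arrays correlated with each other at 0.841 to 0.963 across features.

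The Meis2 5′ feature was high in the CS17 FL, intermediate in the CS16 FL and lowest in the HL at both stages. In the CS17 FL the log2 ratio to the mouse pool was 3.28, 3.07, 3.55 and 3.34 in replicates 1 to 4. In the CS16 FL it was 1.73, 1.91, 2.07 and 2.70. These 8 FL arrays did not overlap between stages, and the lowest CS17 FL array lay 0.36 above the highest CS16 FL array. In the CS16 HL the ratio was 1.19, 1.39, 0.84 and 1.20. In the CS17 HL it was 1.07, 1.29, 1.48 and 0.68. The range of the CS16 HL lay inside that of the CS17 HL, and the highest and the lowest of these 8 values both belong to CS17.

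The group means were 3.31 ± 0.20 (SD, n = 4) in the CS17 FL and 2.10 ± 0.42 (SD, n = 4) in the CS16 FL. They were 1.16 ± 0.23 (SD, n = 4) in the CS16 HL and 1.13 ± 0.34 (SD, n = 4) in the CS17 HL. As folds over the mouse FL pool these are 9.91, 4.29, 2.23 and 2.19. In the order of levels, the CS17 FL stood 1.21 above the CS16 FL and the CS16 FL stood 0.95 above the CS16 HL, in both cases without overlap of single arrays. The lowest CS16 FL array lay 0.34 above the highest CS16 HL array. The CS16 HL and the CS17 HL differed by 0.03 in their means, which is less than the SD of either. The RNA is that of whole autopods, so more cells with the transcript and more transcript in each cell cannot be told apart.

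**Figure D1:**
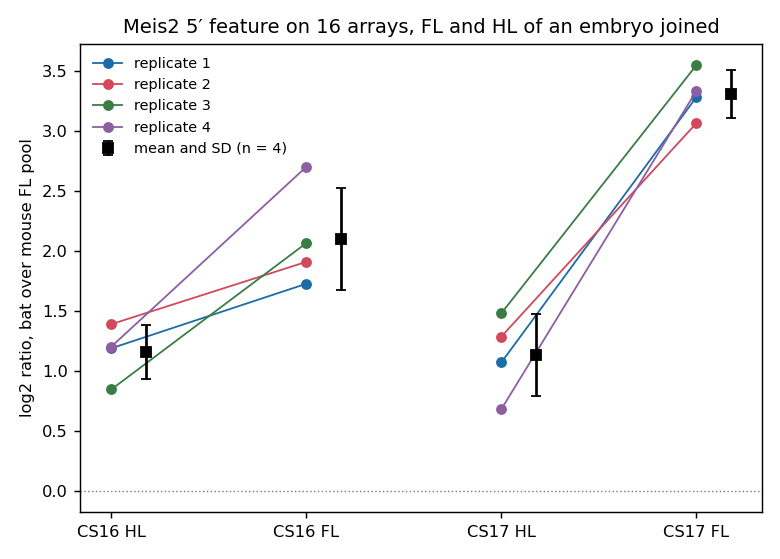
Log2 ratio of the Meis2 5′ feature, bat over mouse FL pool, on each of the 16 arrays by stage and limb, with a line joining HL and FL of the same embryo and black squares for the mean and SD (n = 4). The CS17 FL arrays lie between 3.07 and 3.55, above all others, and the 8 HL arrays lie between 0.68 and 1.48.

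Within every embryo the FL value was above the HL value, and the differences at CS17 were all larger than those at CS16. At CS17 the log2 difference FL minus HL was 2.21, 1.78, 2.07 and 2.66 in embryos 1 to 4. These are folds of 4.64, 3.44, 4.20 and 6.30. At CS16 it was 0.54, 0.52, 1.22 and 1.50, which are folds of 1.45, 1.43, 2.33 and 2.83. Embryos 1 and 2 had the smaller differences at CS16, and the embryo numbered 4 had the largest at each stage. The numbers do not link embryos of different stages. The means were 2.18 (standard error 0.18, n = 4 embryos) at CS17 and 0.95 (standard error 0.18, n = 4 embryos) at CS16. The standard error comes from limma with a common spread for both stages, and the median feature had 0.12.

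These differences chose the feature, so their place among all features is a description. At CS17 the difference was the largest of all 12656 features, where the median size was 0.11 and 95% of features lay between -0.26 and 0.42. The 3 features next in size at CS17 were 812, 17392 and 37151, with log2 differences of 1.22, 1.02 and -0.98. By the same match of listed folds they carry probes for Hoxd11, a homeobox gene of the posterior and distal limb, for Syt13, a member of the synaptotagmin family, and for Gm10059, a predicted pseudogene. At CS16 the difference of the Meis2 5′ feature ranked 5 by size and 2 among features higher in the FL, and 95% of features lay between -0.31 and 0.30. A difference above 0 in 4 of 4 embryos was found at 9.51% of features at CS17 and at 9.78% at CS16, and in 8 of 8 embryos at 0.853%. FL arrays all above HL arrays were found at 4.35% of features at CS17, at 3.48% at CS16 and at 0.198%, or 25 features, at both. The smallest of the 8 embryo differences was 0.52 for the Meis2 5′ feature. That was the highest such value of all features, and feature 812 followed with 0.43.

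**Figure D2:**
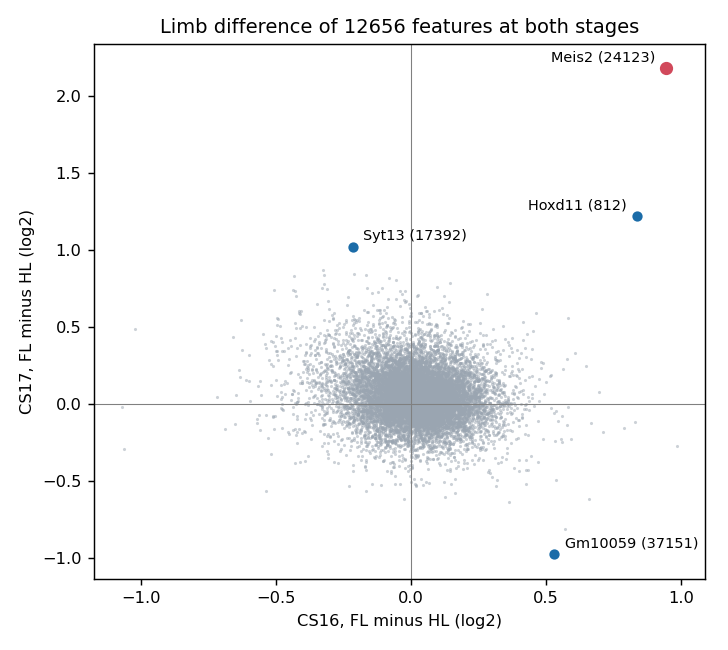
Mean log2 difference FL minus HL at CS16 (horizontal axis) and at CS17 (vertical axis) for 12656 features (n = 4 embryos each), with the Meis2 5′ feature in red and the 3 features next in size at CS17 in blue, named by their matched probes. The Meis2 5′ feature lies at 0.95 and 2.18, away from the cloud, and feature 812 (Hoxd11) lies at 0.84 and 1.22.

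Feature 812 was the only other feature for which the size of the limb difference ranked among the 6 largest at both stages. Its probe has the name M200002041, which the study's list of changed genes gives to Hoxd11 and its list of RT-qPCR targets gives to 3′ Meis2, while its text names another probe for 3′ Meis2. The feature is called Hoxd11 here after the list whose folds it matched. A feature for the 3′ end of Meis2 was not located among the numbered features and was not analysed here.

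The mean FL level was higher at CS17 than at CS16, and the mean HL level was nearly the same at both stages. In the FL the log2 difference CS17 minus CS16 was 1.56, 1.16, 1.48 and 0.63 within labelling batches 1 to 4, with a mean of 1.21 (standard error 0.21, n = 4). This is a fold of 2.31. In the HL it was -0.12, -0.10, 0.64 and -0.52, with a mean of -0.03 (standard error 0.21, n = 4). The HL values were thus lower at CS17 in 3 batches and higher in 1. In batch 4, which had the smallest FL difference, the CS16 FL value of 2.70 was the highest of its group. The embryos of both stages are different animals, and a batch links them only by labelling. The limb difference of CS17 exceeded that of CS16 by 1.24 (standard error 0.25). No test is given for these values because the CS17 means took part in finding the feature.

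Among all features the FL stage difference ranked 4 by size, behind features 7231, 14081 and 6 with 1.40, 1.27 and 1.22. By the match of folds feature 7231 carries a probe for Hapln1, a link protein of the hyaluronan and aggrecan matrix, and feature 6 one for Matn1, a matrilin of cartilage. Feature 14081 has no matched name. CS17 FL arrays all above CS16 FL arrays were found at 3.14% of features. In the HL the stage difference of the Meis2 5′ feature ranked 11087 by size, and 95% of features lay between -0.53 and 0.34 there.

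The choice of the feature did not use the level of the CS16 autopods against the mouse FL pool. That level is still not independent of the choice, because the CS17 FL ratio that helped to choose the feature was measured with the same probe and against the same pool. The mean of FL and HL of an embryo was taken as its value, which gave a CS16 log2 ratio of 1.63 (standard error 0.10, n = 4 embryos). This was above 0 with an adjusted p of 1.58e-07 from limma over 12656 features, with 3 residual and 6.8 prior degrees of freedom, in a fit that took its spread from the embryos of both stages. In a fit of the 4 CS16 embryos alone, added after seeing the data, limma gave the same ratio with an adjusted p of 2.66e-08. Each CS16 embryo has its own repeat number, so a batch correction in these ratios would also remove part of the differences between embryos. Whether the ratios include it is not stated, and with it the standard error and both adjusted p would be too small. Single CS16 arrays lay between 0.84 and 2.70, so 8 of 8 were above 0. The same test called 35.2% of all features higher in the bat and 45.9% lower, shares that change places with the sign as deposited, so the call does not set the Meis2 5′ feature apart. Counted from the feature highest in the bat, its CS16 ratio ranked 481 of 12656, or 12176 with the sign as deposited, against a median of -0.09 over all features. The pool is a single mouse sample, so the variation among mice does not enter the test. No dye was swapped, and in a ratio to the pool expression, dye and mismatch of the mouse probe to bat RNA cannot be told apart.

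Against the mouse pool, the Meis2 5′ feature ranked 20, 21, 15 and 16 of all features on the 4 CS17 FL arrays, counted from the feature highest in the bat. With the sign as deposited these ranks would be 12636 to 12642, at the low end. On the CS16 FL arrays it ranked 454, 239, 164 and 70. On the HL arrays it lay between rank 777 and rank 1984. Values above 0 on all 16 arrays were found at 26.4% of features and values below 0 on all 16 at 36.3%, and these shares too would change places. There were 14 features with a higher mean ratio in the CS17 FL, from 3.41 to 4.60. Their ratios in the CS17 HL ran from 3.11 to 4.55, and their limb differences lay between -0.27 and 0.56. The HL mean of the Meis2 5′ feature, 1.13, was below all of them.

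**Figure D3:**
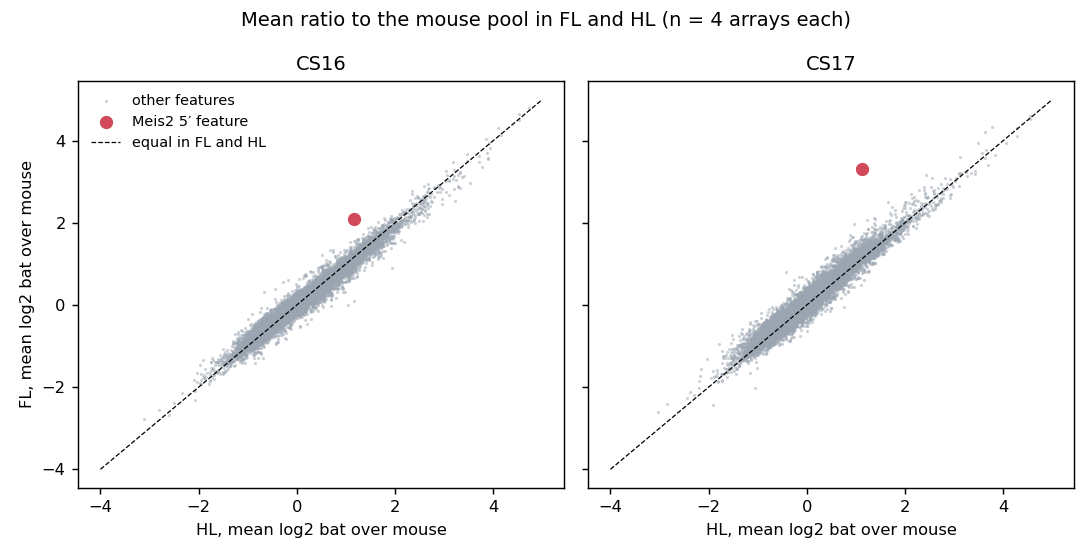
Mean log2 ratio to the mouse FL pool in the HL (horizontal axis) and in the FL (vertical axis) at CS16 and CS17 for all features (n = 4 arrays each), with the Meis2 5′ feature in red and a dashed line where FL and HL are equal. The red point rises from 2.10 at CS16 to 3.31 at CS17 on the FL axis and stays at 1.16 and 1.13 on the HL axis.

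The Meis2 5′ feature had the largest SD over the 16 arrays of all features, 0.96 against 0.85 for the next and 0.17 for the median feature. Differences between the means of the 4 groups made up 91.6% of its variance, the fourth highest share, with a median of 27.6% over features. Its spread within groups was still wider than usual. In the CS16 FL its SD of 0.42 exceeded that of 98.7% of features, and in the CS17 HL its SD of 0.34 exceeded that of 90.5%. In the CS17 FL and CS16 HL these shares were 80.1% and 83.8%. The array farthest from its group mean was CS16 FL replicate 4, which was 0.60 higher, followed by CS17 HL replicate 4, which was 0.45 lower. The means of the 4 labelling batches lay between 1.82 and 1.99, with an SD of 0.078 between batches against a median of 0.028 over all features. A wider spread within groups also widens the spread between batch means, so these SDs do not show a larger batch effect.

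The features whose pattern was most like that of the Meis2 5′ feature were found by Pearson correlation over the 16 arrays. The arrays share the mouse pool, 4 labelling batches and 8 embryos, so the correlations are descriptions. The 5 highest were features 29533 (r = 0.876), 15975 (r = 0.860), 18770 (r = 0.851), 27468 (r = 0.841) and 812 (r = 0.837), and 12 features were above 0.8, with a median of 0.13 over all features. Spearman's rho for these 5 was 0.835, 0.929, 0.738, 0.824 and 0.838. Only feature 812 has a matched name, Hoxd11. All 5 had a higher mean in FL than HL arrays at both stages, but by less than the Meis2 5′ feature. A higher FL mean largely follows from picking the highest correlations. The smaller CS17 difference follows because that of the Meis2 5′ feature was the largest of all features. At CS17 the log2 limb differences were 0.32, 0.20, 0.45, 0.45 and 1.22 in the order given, and at CS16 they were 0.19, 0.20, 0.28, 0.07 and 0.84. Without the 4 CS17 FL arrays the correlations over the other 12 arrays were 0.753, 0.901, 0.667, 0.643 and 0.809, and feature 15975 ranked 2 of all features there while feature 27468 ranked 892. The list itself was not stable, since without replicate 3 0 of the 5 stayed among the 5 highest, and without replicates 1, 2 and 4 the numbers were 2, 3 and 1.

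**Figure D4:**
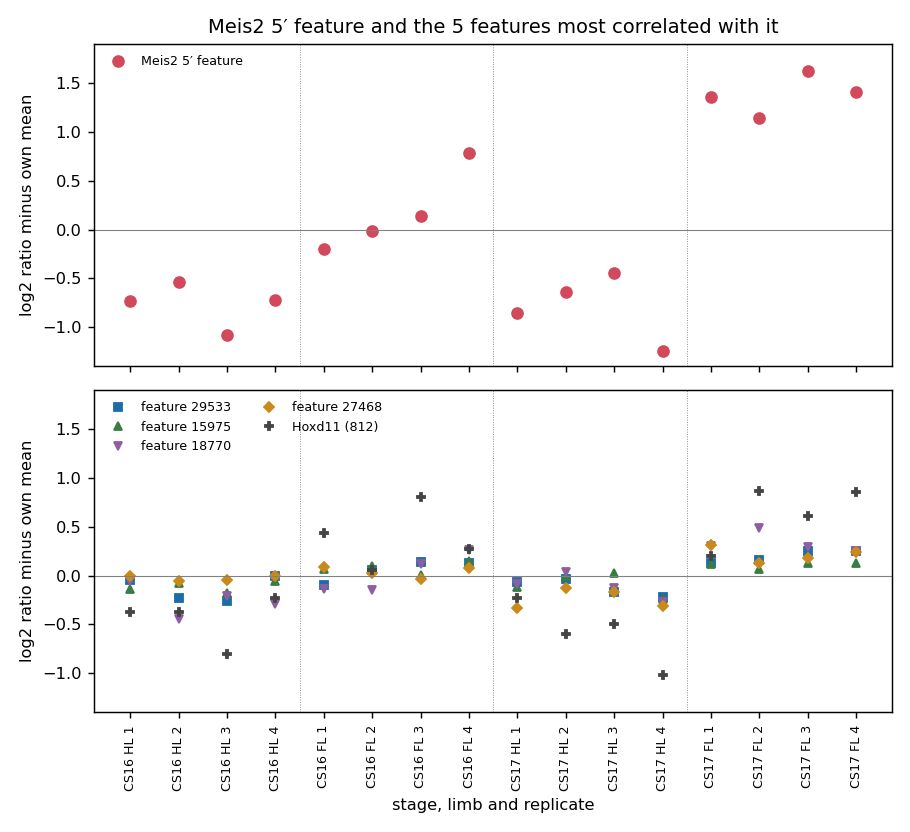
Log2 ratio minus the feature's own mean on each of the 16 arrays, for the Meis2 5′ feature (top) and for the 5 features most correlated with it (bottom), on the same scale. The Meis2 5′ feature spans 2.87 on this scale, and in the bottom panel Hoxd11 (feature 812) has the widest spread.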

How the data were processed

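The authors scanned 2-colour slides and processed the signals in R, where the data were normalised after background correction. Their methods also name quality and variance filters, imputation of missing values and a batch correction. Which of these steps the deposited log2 ratios include is not stated. Of 37440 array features, 13988 (37.4%) had values, none partly missing, and features with identical values were counted once (12656). The sign was turned as the report describes. No scanner files were used, so signal over background is unknown, and precision is limited by 4 arrays in each group.

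The CS16 level was tested in R 4.3.3 by limma 3.58.1 (lmFit and eBayes, with Benjamini-Hochberg adjustment over all features) on 8 embryo means, with the replicate number as a term. Limb differences were fitted with embryos as a term and stage differences with the replicate number. FL and HL numbers pair because the study ties them to 1 embryo. Deviations of paired arrays correlated at -0.38 to 0.08 across features, and all were negative except that of CS17 replicate 3. A batch correction in the deposited ratios would push such correlations below 0, so they cannot show whether an embryo has a shared level. The pairing rests on the study's statement. The CS16 fit was tested on simulated data. Correlations and ranks were computed with pandas 2.3.3 under Python 3.11.15, and matplotlib 3.10.9 drew the plots.

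The feature and the lists were chosen with earlier results of these data known. Named are the feature, the 5 most correlated and the 3 next in CS17 limb difference. Others named by rank were chosen after their values were seen. Planned lists of Meis, Pbx, Hox, retinoic acid and tissue marker genes were not analysed here, because features have numbers only, and tissue identity was not checked. The alternatives were no replicate block, single arrays, centring, quantile normalization, medians, the most variable features, robust moderation, other tolerances and correlations, and each replicate left out.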

Additional observations from a re-analysis of the deposited data

How the results depend on the processing

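The alternatives gave 67 values for the 9 levels, differences and tests of the Meis2 5′ feature. All 67 stayed within the spread between replicates or on the same side of the test. For levels and differences this spread was the SD of the replicates. Leaving out a replicate or taking the median cannot move a mean by a full SD, so those values could not have fallen outside. Among levels and differences, only centring and quantile normalization could have given a value outside the spread. With no replicate block limma gave a CS16 ratio of 1.63 with an adjusted p of 1.90e-08 (standard error 0.09), so leaving out the block did not change this call. If the deposited ratios already include a batch correction, leaving out the block could show little. With all 16 arrays as separate values, without averaging FL and HL of an embryo, the ratio was also 1.63, and under every alternative its adjusted p was at most 4.64e-06. The pairing of FL and HL was not removed from the limb differences. Without each replicate in turn the CS16 ratio lay between 1.52 and 1.69, the CS17 limb difference between 2.02 and 2.31, and the CS16 limb difference between 0.76 and 1.09. The HL stage difference lay between -0.25 and 0.14 and has no settled sign. Of the 5242 most variable features, 2565 (48.9%) were called higher at CS16 and 1812 (34.6%) lower, against 4449 higher and 5809 lower of all 12656. With the sign as deposited, 0 features matched the listed folds. Of the 5 most correlated features, 1 stayed among the 5 highest with Spearman's rho, 1 without the CS17 FL arrays and 3 after quantile normalization, and 0 to 3 without 1 replicate. The cause was not tested.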

Other observations

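The study lists 29 other probes that match exactly 1 feature by their folds, chosen by the study on the same arrays. Their correlations with the Meis2 5′ feature over the 16 arrays lay between -0.435 and 0.837. The median was 0.461, against 0.13 over all features. The list includes probes chosen for their limb differences on these arrays, so higher correlations than usual are partly built in. The limb differences below are the values by which these features were matched, so they are descriptions. After Hoxd11 the highest were Pgcp, a carboxypeptidase (r = 0.790), and Taok3, a protein kinase (r = 0.766). With the tolerance of 0.1, 4 features matched the folds of Taok3 and 1 those of Pgcp, so the name Taok3 is less sure. Pgcp had a limb difference of 0.79 at CS17 and 0.14 at CS16, and Taok3 one of 0.68 at CS17 and -0.08 at CS16. At the other end stood Sbsn, suprabasin of the epidermis (r = -0.435), with limb differences of -0.29 at CS17 and -1.06 at CS16.

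The lowest correlation of all features with the Meis2 5′ feature was that of feature 24405 (r = -0.917, rho = -0.941), singled out after its values were seen. Its mean log2 difference FL minus HL was -0.29 at CS17 and -0.14 at CS16, opposite in sign to that of the Meis2 5′ feature. An opposite limb difference largely follows from picking the lowest correlation. Feature 24405 has no matched name.

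Within 20 feature numbers of the Meis2 5′ feature, 5 others had values. Their limb differences lay between -0.24 and 0.50 at CS17 and between -0.27 and 0.21 at CS16. Whether numbers follow positions on the slide is not given in the sources used here.

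Dixon's gap ratio was computed for the 8 groups of 4 values of the Meis2 5′ feature, its levels and differences. The largest was 0.652, in the CS16 FL, which is below the critical value at the 5% level for 4 samples.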
